A study of Pimephales promelas with 27 samples.

Results

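The comparison set 5 arrays of fathead minnow (Pimephales promelas) ovary explants cultured for 9 h with dihydrotestosterone (DHT) against 5 arrays of explants cultured for 6 h with it. The 10 arrays were chosen by their titles, out of 27 in the series. In the titles the groups are called DHT6 and DHT9. Both groups were exposed to DHT at 1e-06 M, so they differ in time of culture and share the agent and its dose. Untreated explants of 6 h (4 arrays) and 9 h (5 arrays) gave the background of culture without DHT, and 4 DHT arrays and 4 control arrays of 12 h the later course. All samples were female ovary. The labels give no vehicle, age, strain or number of fish. Whether a group's samples came from different fish is not given either, and p-values therefore reflect only the spread among the samples measured. RNA before culture was not analysed here, so every change below is between 2 times in culture.

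DHT is an androgen that binds the androgen receptor and, unlike testosterone, cannot be converted to an oestrogen by aromatase. The androgen receptor is a transcription factor that moves to the nucleus when it binds its hormone. In the fish ovary, androgens are made by theca cells and are the substrate from which granulosa cells make oestradiol, and follicle cells and oocytes are in close contact within each follicle. An explant is a piece of the organ kept in medium, so that its cells are also cut off from blood supply and from pituitary hormones during the culture. The fathead minnow is a small fish much used in tests of endocrine disruption.

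Each array measured 15208 probes other than controls, in 1 colour (Cy3). Between 12516 and 13388 of them were well above background on the 6 h arrays and between 12206 and 13279 on the 9 h arrays. No probe was saturated. The 75th percentile of the processed signal ran from 2581 to 4103 on the 6 h arrays and from 2995 to 4864 on the 9 h arrays. All levels below are log2 signals relative to that percentile of the same array, and all changes are differences of these levels, 9 h minus 6 h. Across probes, the 10 arrays correlated pair by pair at r from 0.930 to 0.972, and DHT 6 h replicate 2 was the least like the others, with a mean r of 0.936. All 6 and 9 h arrays were scanned on 1 day. Slide 2 held 4 of the 6 h arrays (replicates 1 to 4) and 1 of 9 h (replicate 2), and slide 3 held 1 of 6 h (replicate 5) and 2 of 9 h (replicates 3 and 4), so that time and slide were partly mixed. Replicate numbers only name the arrays. Precision is limited by how many arrays there are.

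No file pairs the probes with genes, and 0 probe names matched the 64593 entries of the reference gene table. Probes are therefore given by their IDs, no gene group can be described, and the ovary label was not checked against markers of oocytes, follicle cells or blood. In RNA of a whole tissue piece, fewer cells of a type and less RNA per cell cannot be told apart.

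Between 6 and 9 h with DHT, 45 probes rose and 64 fell. limma called these 109 of 13714 tested probes at an adjusted p under 0.05, in a model of all 27 arrays. They are 0.795% of the probes tested, 0.328% for the rises and 0.467% for the falls. The rises had a median of 2.06-fold and ran from 1.41-fold to 5.26-fold, and 24 of them were over 2-fold. The falls had a median of 1.65-fold and ran from 1.44-fold to 22.6-fold, and 8 were over 2-fold. Most falls were therefore small, and only the 2 largest, 22.6-fold and 18.8-fold, were larger than any rise. All 13714 tested probes together had a median change of -0.04, a value that the scaling to the 75th percentile largely sets. Before adjustment, p was under 0.05 in 2034 probes, 942 higher and 1092 lower at 9 h, and the smallest adjusted p was 0.00281.

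The number of called probes differed widely with the arrays fitted and with the blocks used. A limma fit to the 14 DHT arrays called 6 probes, all of them among the 109. A limma fit to the 10 arrays compared called 0, with 1725 at an unadjusted p under 0.05 and a smallest adjusted p of 0.112. With slide as a fixed block 20 were called, 15 of them among the 109. With the pairs of DHT and control arrays described below as a random block, an alternative chosen after the data were seen, 39 were called, all among the 109. The estimated changes were the same in the fits to 14 and to 10 arrays as in the fit to all arrays, and all 109 probes had an unadjusted p under 0.05 in both. The 109 were called on these same arrays, so this is no separate support. Leaving out DHT 6 h replicate 1, 2, 3 or 4 left 28, 14, 30 or 15 calls, and replicate 5 left 92. Leaving out DHT 9 h replicate 1, 3, 4 or 5 left 64, 24, 14 or 55, and leaving out replicate 2 raised the count to 229. The signal and scaling moved the split between rises and falls. It was 45 and 64 relative to the 75th percentile, 65 and 64 when normexp background correction of the median signal and quantile normalization replaced it together, 49 and 41 after quantile normalization alone, and 62 and 50 in the authors' deposited log2 values. All 109 probes kept their direction under these 3 alternatives. The first of them is called normexp below. It adds an offset of 50 to every signal, which shrinks log2 differences of dim probes.

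**Figure D1:**
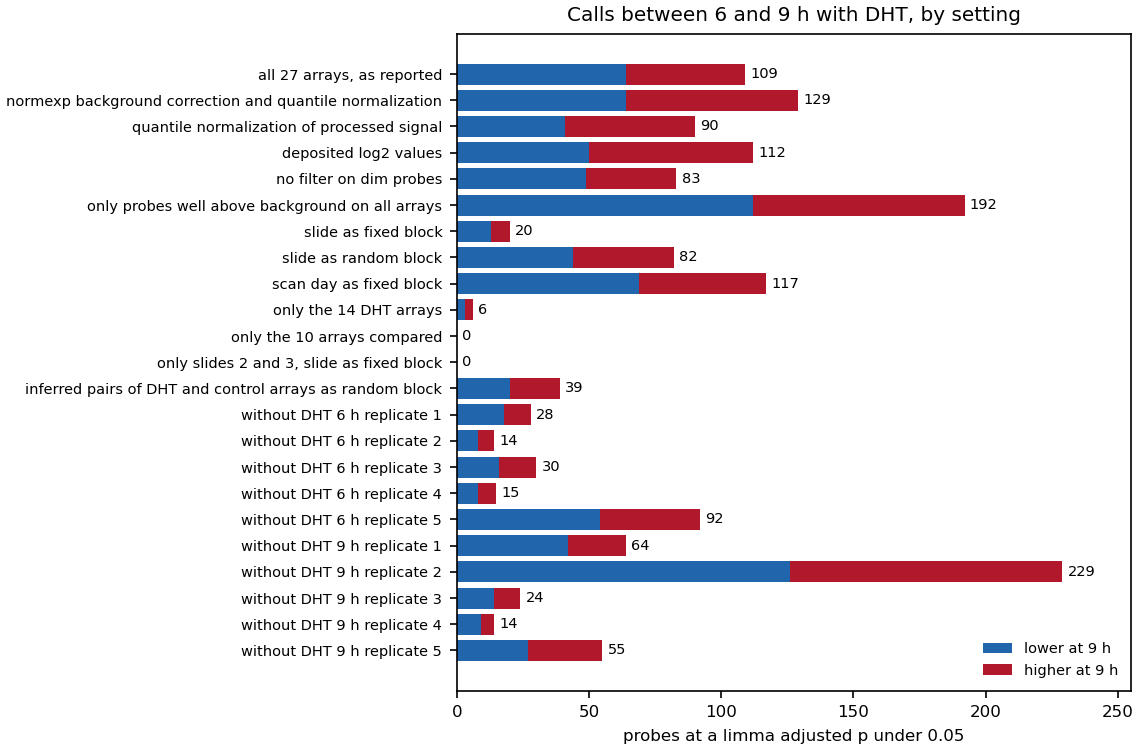
Number of probes called between 6 and 9 h with DHT (horizontal axis, limma adjusted p under 0.05) in each fit, with lower probes in blue and higher ones in red. The bars run from 0 for the 10 arrays alone to 229 without DHT 9 h replicate 2, against 109 for all 27 arrays.

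The rise of UF_Ppr_AF_116216 was the largest among called probes, at 5.26-fold. Its levels after 6 h were -7.08, -6.72, -6.28, -6.53 and -6.45 on replicates 1 to 5, a mean of -6.61 ± 0.31 (SD, n = 5). After 9 h they were -4.50, -4.34, -6.36, -2.72 and -3.16, a mean of -4.22 ± 1.42 (SD, n = 5). The 6 h arrays lay close together, and 4 of the 5 arrays of 9 h stood well above them, while DHT 9 h replicate 3 stood among them, so that the groups overlapped. The change was 2.40 (SE 0.54, limma adjusted p = 0.0375). Its size fell to 1.22 after normexp, where the call ended (limma adjusted p = 0.0510). The call also ended with any of the 5 arrays of 6 h or DHT 9 h replicate 1, 4 or 5 left out (limma adjusted p up to 0.123, changes from 2.02 to 2.93 over all 10 omissions), and in the fits to 14 arrays (0.102), to 10 arrays (0.207) and with slide as a fixed block (0.101).

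UF_Ppr_AF_116027 rose 5.16-fold, and its groups did not overlap. The levels after 6 h were -6.05, -5.73, -6.47, -6.88 and -5.46, with a mean of -6.12 ± 0.57 (SD, n = 5). After 9 h they were -3.66, -4.65, -2.23, -4.01 and -4.19, with a mean of -3.75 ± 0.92 (SD, n = 5). Every 9 h array was above every 6 h array. The change was 2.37 (SE 0.43, limma adjusted p = 0.0137), and 1.47 after normexp (limma adjusted p = 0.0105). The call ended without DHT 6 h replicate 4 (limma adjusted p = 0.0618), in the fits to 14 arrays (0.0788) and 10 arrays (0.178), and with slide as a fixed block (0.0802). It held under the other 9 omissions.

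UF_Ppr_AF_111538 had the largest fall of the called probes, 22.6-fold. Its levels after 6 h were 0.07, 1.04, 1.91, 2.79 and 1.04, a mean of 1.37 ± 1.03 (SD, n = 5), and all but the first were above the 75th percentile of their array by over 1 on the log2 scale. After 9 h they were -1.34, -3.17, -4.08, -2.97 and -4.09, a mean of -3.13 ± 1.13 (SD, n = 5). The groups were apart by more than 1 log2 unit even between their nearest arrays, both of them replicate 1. The change was -4.50 (SE 0.77, limma adjusted p = 0.00843). It passed in the fit to the 14 DHT arrays (limma adjusted p = 0.0215) and under each of the 10 omissions of 1 array (0.00936 to 0.0397). It missed in the fit to the 10 arrays (0.112), with slide as a fixed block (a change of -3.86, limma adjusted p = 0.0802) and with the inferred pairs as a block (a change of -4.30, limma adjusted p = 0.0557).

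UF_Ppr_AF_116100 fell 18.8-fold. Its levels after 6 h were 1.78, 3.05, 2.88, 3.67 and 2.18, a mean of 2.71 ± 0.74 (SD, n = 5). After 9 h they were -0.72, -0.44, -3.24, -2.68 and -0.54, a mean of -1.52 ± 1.33 (SD, n = 5). The 9 h arrays fell into a pair near -3, both on slide 3, and a set of 3 between -0.72 and -0.44, all below the 6 h arrays. The change was -4.23 (SE 0.72, limma adjusted p = 0.00843). It passed in the fit to the 14 DHT arrays (limma adjusted p = 0.0215) and under each of the 10 omissions of 1 array (0.00745 to 0.0397). It missed in the fit to the 10 arrays (0.112), with slide as a fixed block (a change of -3.68, limma adjusted p = 0.0722) and with the inferred pairs as a block (a change of -4.10, limma adjusted p = 0.0585).

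**Figure D2:**
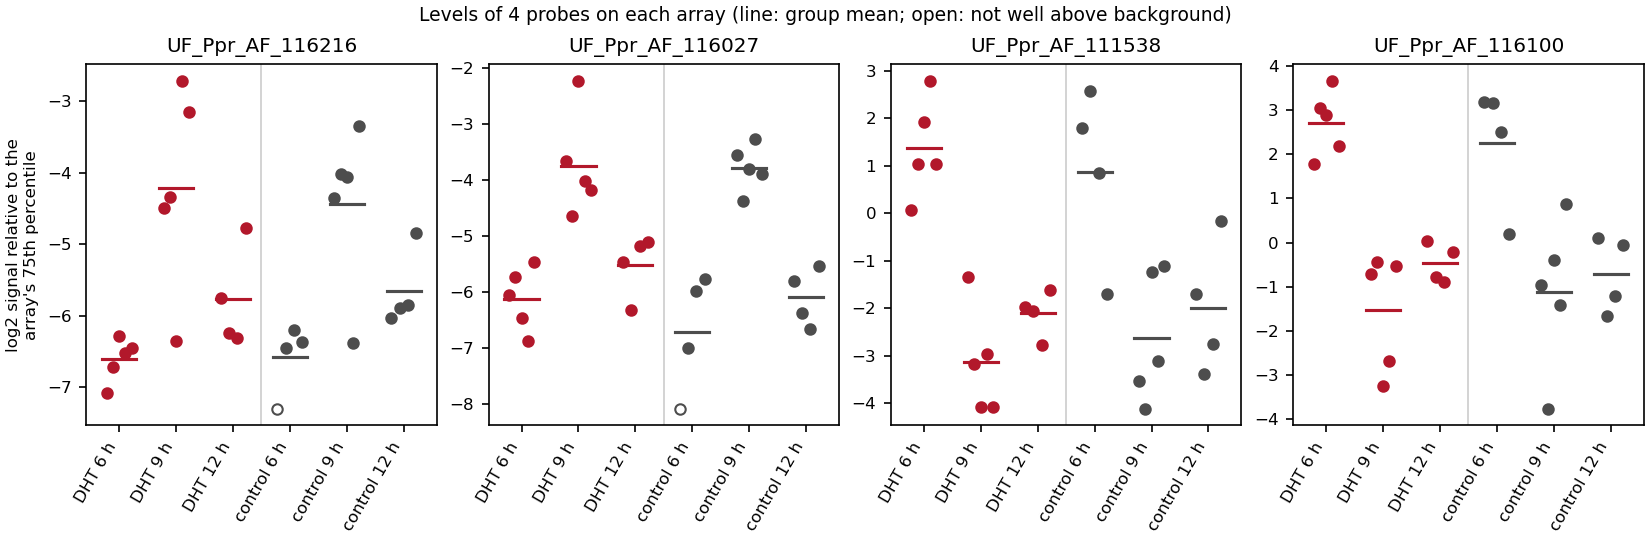
Levels of the 4 probes on each array (vertical axis, log2 signal relative to the array's 75th percentile), for DHT groups in red and control groups in grey, with group means as lines and open points for arrays where the probe was not well above background. The DHT groups of 6 and 9 h are apart for all but UF_Ppr_AF_116216, where DHT 9 h replicate 3 stands at -6.36 among the 6 h arrays. The control groups of 6 and 9 h are apart for UF_Ppr_AF_116027 alone, and the 12 h means lie between those of 6 and 9 h.

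The 8 next largest rises among called probes well above background on all 10 arrays ran from 1.27 to 2.11, or 2.41-fold to 4.33-fold, with SE from 0.23 to 0.44. In 7 of the 8 the groups did not overlap. The 8 next largest falls ran from -1.50 to -0.91, or 1.88-fold to 2.82-fold, with SE from 0.18 to 0.35, and the groups overlapped in none of the 8. Below the first 2 falls the sizes thus dropped at once from 18.8-fold to under 3-fold, while the rises declined more evenly. Of all called probes, 104 were well above background on all 10 arrays, 42 of those that rose and 62 of those that fell.

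Groups that did not overlap were found for 486 of the tested probes, which is 3.54%, with 222 higher and 264 lower at 9 h. Of the 109 called probes 96 were among these, 40 that rose and 56 that fell. The call used the same arrays, so this describes the called probes and adds no test.

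Large mean differences were more often uncalled than called. A difference of over 2-fold was found for 844 probes, 471 higher and 373 lower, and 32 of these were called. Of the 844, 400 were not well above background on at least 1 of the 10 arrays. The 812 uncalled ones had a median SD of 1.07, against 0.46 over all tested probes and 0.27 over the called ones. This is the SD within groups that limma pooled over all 6 groups of the model. The calls rest on it, so this contrast is a description and adds no test. In 754 of the 812 the groups overlapped. The largest uncalled difference upward was 5.07 (SE 2.06, limma adjusted p = 0.235), in a probe with an SD of 0.59 over the 6 h arrays and 4.57 over the 9 h arrays, well above background on 0 of 5 and 3 of 5. Downward it was -6.69 (SE 1.98, limma adjusted p = 0.0960), with an SD of 4.80 at 6 h and 1.09 at 9 h, and well above background on 5 of 5 and 1 of 5. The groups overlapped for the upward difference but not for the downward difference. In controls these probes changed by 3.29 and -5.10. The interval of the change at 95% lay within 2-fold either way for 56.8% of the tested probes, and its median width to either side was 0.60. For the other probes a 2-fold change was not excluded at this number of arrays.

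Calls were unevenly spread over signal. Of 1382 tested probes with a mean level over the 10 arrays above 2, 23 fell and 5 rose. Of 2264 from 0 to 2, 25 fell and 18 rose. From -2 to 0, 6 of 2005 fell and 8 rose. From -4 to -2, 1 of 2513 fell and 4 rose. From -6 to -4, 6 of 2744 fell and 7 rose, and below -6, 3 of 2806 fell and 3 rose. Falls were thus found mostly among bright probes, with 48 of the 64 (75%) above 0, against 23 of the 45 rises (51.1%) and 26.6% of all tested probes. The standard error went with signal too, its median being 0.16 above a level of 2 and 0.45 below -6, so smaller changes could be called among bright probes. The median change of all probes was -0.07 above 2, -0.02 from 0 to 2 and -0.09 below -6. Its part in the count of falls was not tested.

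**Figure D3:**
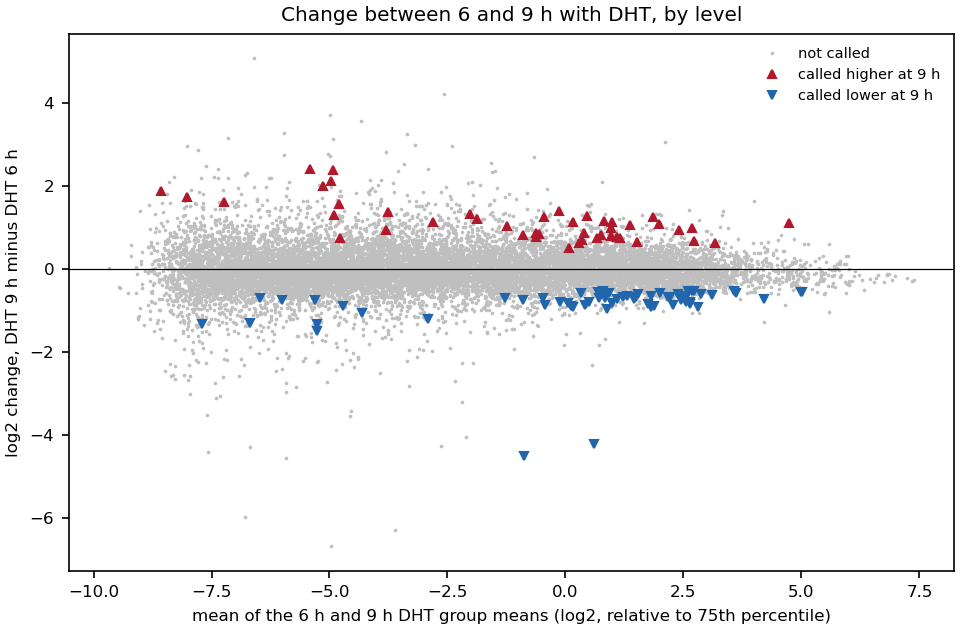
Change between 6 and 9 h with DHT (vertical axis, log2) against the mean of both DHT group means (horizontal axis, log2 relative to the array's 75th percentile) for all tested probes, with called rises as red and called falls as blue triangles. Most of the 64 falls lie above a level of 0 and close to the cloud, apart from a pair below -4, while uncalled probes spread widest at low levels.

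By the kind of name on the array, 33 rises and 56 falls were among 10984 tested probes named after contigs (0.300% and 0.510%), and 11 rises and 8 falls among 2698 named after a sequence number (0.408% and 0.297%). The latter probes were dimmer, with a median level of -5.32 against -2.27. The remaining called probe, a rise, was 1 of 32 with another kind of name.

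Within slides the changes ran the same way. On slide 2, all 45 rises and all 64 falls had the sign of the whole comparison, with medians of 0.85 and -0.60. On slide 3 all did as well, with medians of 1.09 and -0.81. Of all tested probes, 65.9% kept their sign on slide 2 and 72.4% on slide 3. These are arrays already used for the calls and so no separate evidence. For the single probes, the changes on slides 2 and 3 were 2.31 and 1.91 for UF_Ppr_AF_116216 and 1.63 and 2.33 for UF_Ppr_AF_116027. They were -4.62 and -4.56 for UF_Ppr_AF_111538, and -3.28 and -5.14 for UF_Ppr_AF_116100. A limma fit to the 8 arrays of these slides, with slide as a block, called 0 probes (943 at an unadjusted p under 0.05, smallest adjusted p 0.0601), and 92 of the 109 had an unadjusted p under 0.05 there.

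The next question was whether the change over time with DHT differed from the change without it. Most probes called with DHT, which were chosen by their change with DHT, moved in the same direction in untreated explants. Of the 109 probes called with DHT, 108 had the same sign in controls, against 78.3% of all tested probes, and the exception was UF_Ppr_AF_115298. In controls limma called 176 probes between 6 and 9 h, 1.28% of those tested, 65 higher and 111 lower. The calls of both arms shared 69 probes, 63.3% of the 109 and 39.2% of the 176. The 45 probes that rose with DHT had control changes from 0.05 to 2.92 with a median of 0.96, against 1.05 with DHT. The 64 that fell had control changes from -3.50 to 0.99 with a median of -0.72, against -0.72 with DHT.

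Both arms share no array, but they are not independent. After the group means were removed, 8 of the 10 DHT arrays correlated across probes at r from 0.473 to 0.797 with a control array of the same time, and DHT 6 h replicate 5 and DHT 9 h replicate 4 did not (0.048 and 0.116). These 8 pairs hold 8 different control arrays. Pairs were sought at 6 and 9 h alone, and the 12 h arrays were left unpaired in the fits to 27 arrays. The model of all 27 arrays treats both arrays of a pair as separate samples. With the 8 pairs as a random block, chosen after the data were seen and inferred from the same arrays, the correlation within pairs was 0.706, and the calls between 6 and 9 h with DHT went from 109 to 39.

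The test of the difference between both time changes called 0 of 13714 probes (0%) in limma. Before adjustment 69 had a p under 0.05, and the smallest adjusted p was 0.619. If no probe differed, a share of about 0.05 would have such a p, and 69 of 13714 is far under that share. The p-values of this model thus ran high, so its 0 calls do not show that both arms changed alike. Its intervals below come from the same fit. This model leaves out the pairs, and none of the alternatives without them called a probe. With the inferred pairs as a random block, limma called 1 probe over all 27 arrays and 2 over the 19 arrays of 6 and 9 h, all with a lower change with DHT than in controls, and 643 and 556 had an unadjusted p under 0.05. Both counts were also under a share of 0.05 of the tested probes. After normexp with the same pairs limma called 0. The count for this difference thus depended on the pairing and on the signal used, and the pairs are not given by the labels. In the model without pairs, the difference between arms among the 109 had a median size of 0.11 on the log2 scale and was under 0.5 in 103. Its interval at 95% lay within 2-fold either way for 90 of them, and for 44.2% of all tested probes. For UF_Ppr_AF_116216 the control change was 2.15 (limma adjusted p = 0.0627), and the difference between arms was 0.25 (interval -1.39 to 1.89). For UF_Ppr_AF_116027 the control change was 2.92 (limma adjusted p = 0.00411), and the difference was -0.55 (interval -1.85 to 0.74). The falls in controls were -3.50 for UF_Ppr_AF_111538 (limma adjusted p = 0.0350) and -3.39 for UF_Ppr_AF_116100 (limma adjusted p = 0.0295). Both were somewhat smaller than with DHT, but the intervals of the difference, -3.31 to 1.30 and -3.01 to 1.32, included 0. Control 6 h replicate 4 was low for both, at -1.70 and 0.20, below every 6 h array with DHT, and both falls overlapped between times in controls. The inferred partner of that array, DHT 6 h replicate 2 (r = 0.473), stood at 1.04 and 3.05, the lowest of its group for neither. In controls the low array of UF_Ppr_AF_116216 at 9 h was replicate 4, at -6.38. Its inferred partner was DHT 9 h replicate 3, the low array with DHT, at r = 0.693. Both lay on slide 3, where DHT 9 h replicate 4 was the highest array of its group, at -2.72.

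**Figure D4:**
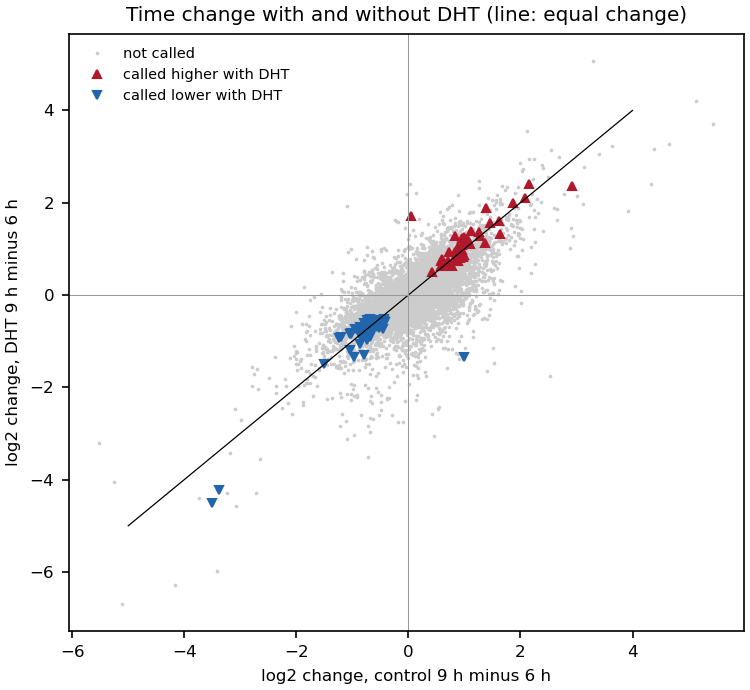
Change between 6 and 9 h with DHT (vertical axis, log2) against the change in controls (horizontal axis, log2) for all tested probes, with probes called with DHT as triangles and a line of equal change. Most called probes lie near the line, with a difference between arms under 0.5 in 103 of the 109. Farthest from it are UF_Ppr_AF_115298, at -1.33 with DHT and 0.99 in controls, and UF_Ppr_AF_117880, at 1.72 and 0.05.

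The probes with the smallest p for a difference between arms, one in each direction, were dim. UF_Ppr_AF_115298 stood after 6 h with DHT at -6.81, -7.28, -6.38, -7.24 and -7.48, well above background on 4 of 5 arrays. After 9 h with DHT it stood at -8.20, -8.31, -7.74, -9.45 and -8.16, not well above background on any array. In controls it stood at -8.67, -9.24, -8.74 and -8.67 after 6 h, not well above background on any, and at -7.28, -8.17, -7.99, -8.20 and -7.58 after 9 h, well above background on replicate 4 alone. The measured values of the arms went in opposite directions between 6 and 9 h, with no overlap between times in either. Of these groups only that of 6 h with DHT was measured above background on most arrays. At 12 h, on other slides and scan days, the means were -5.98 with DHT and -6.93 in controls, both higher than at 6 h. The measured difference between arms in the change from 6 to 9 h was -2.32 (SE 0.46, interval -3.28 to -1.36). It did not pass without the pairs (limma adjusted p = 0.619). It passed with the inferred pairs as a block, at -2.24 (SE 0.32, limma adjusted p = 0.00549) over 27 arrays and -2.25 (limma adjusted p = 0.0287) over 19. After normexp it was -0.20 without the pairs and -0.19 with them, and did not pass (limma adjusted p = 1.00 with the pairs). The second probe called over 19 arrays was UF_Ppr_AF_105843, named here after its values were seen, at -1.87 (SE 0.30, limma adjusted p = 0.0477). It was also dim, well above background on 1 of 5 and 0 of 5 DHT arrays and on 0 of 4 and 2 of 5 control arrays of 6 and 9 h, and after normexp it was at -0.27. Since the offset of normexp shrinks differences of dim probes, its sizes alone are no check on the difference between arms. For UF_Ppr_AF_115298 with the pairs over 27 arrays, the SE shrank as well, from 0.32 to 0.09 after normexp. Without the pairs, its difference was -1.83 (SE 0.50) after quantile normalization alone and -1.99 (SE 0.51) in the deposited values. It passed in neither. UF_Ppr_AF_115298 fell with DHT by a measured change of -1.33 (limma adjusted p = 0.0485). With the 9 h arrays raised to the lowest signal well above background, the fall was 1.39-fold. This is no strict bound, since DHT 6 h replicate 2, not well above background, was taken as measured. UF_Ppr_AF_115298 and UF_Ppr_AF_105843 were among 13714 probes looked at for a difference between arms.

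UF_Ppr_AF_117880 stood after 6 h with DHT at -9.90, -8.42, -8.65, -8.11 and -9.30, not well above background on any array. After 9 h it stood at -6.84, -7.19, -8.07, -7.25 and -6.42, well above background on replicates 1, 4 and 5. Its measured change with DHT was 1.72 (limma adjusted p = 0.0302), while the control change was 0.05 (limma adjusted p = 0.973). With the 6 h arrays raised to the lowest signal well above background, it was 1.38-fold higher at 9 h with DHT. This is no strict bound, since DHT 9 h replicates 2 and 3, not well above background, were taken as measured. The measured difference between arms was 1.67 (SE 0.54, limma adjusted p = 1.00), and 0.28 after normexp. With the inferred pairs it was 1.59 over 27 arrays and did not pass either (limma adjusted p = 0.250).

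After 12 h with DHT, most of the called probes had a mean between those of 6 and 9 h. The 12 h arrays shared no slide and no scan day with the others, so here batch cannot be told apart from time, and they are set against the same 6 and 9 h arrays as above. The 45 probes that rose by 9 h had a median change between 6 and 12 h of 0.41, from -0.21 to 1.49, against 1.05 between 6 and 9 h. The 64 that fell had a median of -0.34, from -3.48 to 2.36, against -0.72. All tested probes had a median of 0.09. Of the rises 39 had a 12 h mean between those of 6 and 9 h, 4 below that of 6 h and 2 above that of 9 h. Of the falls 47 lay between, 15 above their 6 h mean and 2 below their 9 h mean. A mean at 12 h below that at 9 h was found for 43 of the 45 rises and for 61.4% of all tested probes higher at 9 h, and one above it for 62 of the 64 falls and 77.2% of all tested probes lower at 9 h. These shares use the 9 h arrays on both sides and are a description. In the 12 h arrays, UF_Ppr_AF_116216 stood at -5.75, -6.24, -6.31 and -4.78, with a mean of -5.77 ± 0.71 (SD, n = 4). UF_Ppr_AF_116027 stood at -5.47, -6.33, -5.18 and -5.11, with a mean of -5.52 ± 0.56 (SD, n = 4). Both means were above those of 6 h by less than 1, at 0.84 and 0.60. UF_Ppr_AF_111538 stood at -1.98, -2.06, -2.77 and -1.63, with a mean of -2.11 ± 0.48 (SD, n = 4), and UF_Ppr_AF_116100 at 0.05, -0.78, -0.90 and -0.21, with a mean of -0.46 ± 0.45 (SD, n = 4). These stayed below every 6 h array with DHT, by -3.48 and -3.17 in the mean, so that most of the fall was still there. Of the 8 next largest rises all were above their 6 h mean at 12 h, by 0.31 to 1.23, and of the 8 next largest falls 3 were above it and 5 below, from -0.76 to 2.36.

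The called probes as a set showed the same course array by array. The median difference of the 45 rises from the DHT 6 h mean was -0.11 to 0.14 on the 6 h arrays with DHT, 0.84 to 1.23 at 9 h and 0.25 to 0.53 at 12 h. On control arrays it was -0.10 to 0.06 at 6 h, 0.47 to 1.23 at 9 h and 0.13 to 0.41 at 12 h. The 64 falls had medians of -0.08 to 0.15, -0.88 to -0.58 and -0.36 to -0.22 with DHT, and of 0.01 to 0.09, -0.83 to -0.52 and -0.29 to -0.11 in controls. The DHT values of 6 and 9 h describe the arrays the calls were made on, while the control and 12 h arrays entered the choice through the spread of the model. Since most DHT arrays of 6 and 9 h resemble a control array, the control values are no independent repeat. In controls too, every 9 h array lay beyond every 6 h and 12 h array, with the 12 h arrays in between. DHT 9 h replicate 2, the array whose omission raised the count of calls, had the lowest of the 5 medians for the rises, at 0.84.

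**Figure D5:**
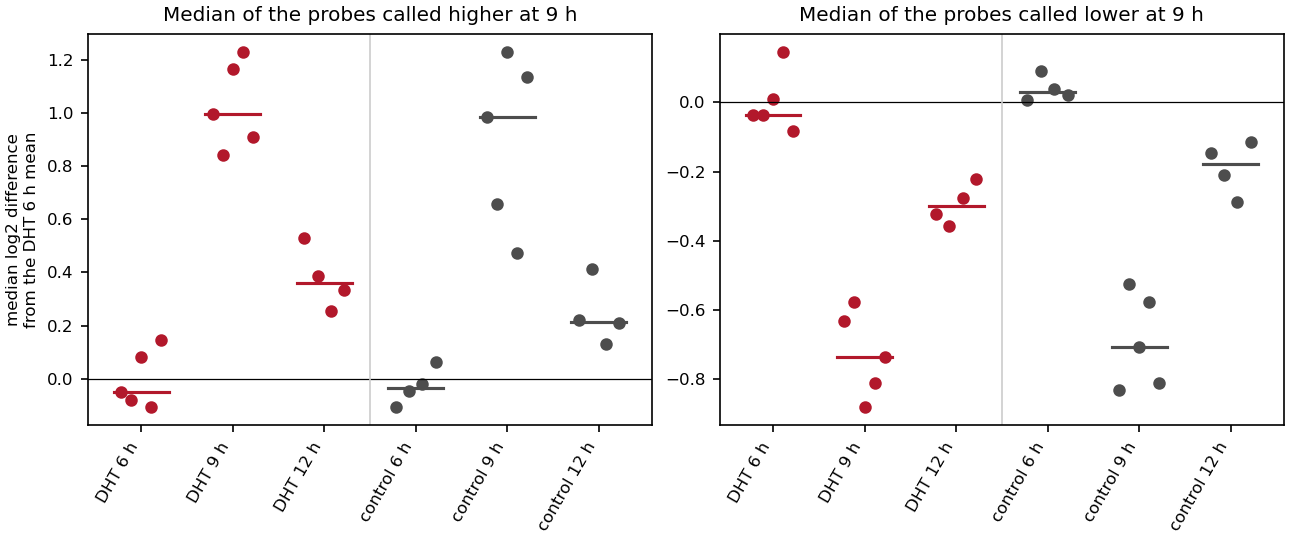
Median log2 difference from the DHT 6 h mean over the 45 probes called higher (left) and the 64 called lower (right), 1 point for each array, with DHT groups in red, control groups in grey and group medians as lines. In both arms the 9 h arrays are farthest from 0 and the 12 h arrays lie between those of 6 and 9 h.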

How the data were processed

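RNA was taken up in TRIzol and had integrity numbers from 6.5 to 8.3, per the labels. Per the submitters' processing notes and file headers, Agilent Feature Extraction 10.7.1.1 gave each spot a processed signal, deposited as a linear intensity after background subtraction. Other values in the authors' deposited scanner files are flags, 0 or 1, that mark saturated or non-uniform spots and those well above background. The authors' deposited table holds log2 values of unstated normalization (r with the scanner values at least 0.998 on each of the arrays, column medians 8.13 to 8.20).

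Levels were log2 processed signal minus the log2 75th percentile of each array over non-control probes. Of 15208 probes, 169 flagged as non-uniform or as population outliers on at least 1 array and 1333 well above background on fewer than 4 arrays were left out (the sets overlap), and 13714 were tested. limma 3.58.1 in R 4.3.3 fitted 1 mean for each of the 6 groups over 27 arrays. Benjamini-Hochberg adjustment was over all tested probes, with a threshold of 0.05. The model was tested on simulated data whose arrays were independent, so its behaviour with paired arrays was not tested. Intervals are at 95%. Where no array of a group had a probe well above background, another fold was computed. It raises values of that group to at least the lowest signal of any probe well above background on the same array. The other group is taken as measured. Figures used Python 3.11.15, matplotlib 3.10.9, numpy 2.4.6 and pandas 2.3.3.

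The comparison, probe rule and lists were chosen with earlier results of these data known. The planned gene lists and cell type markers were not run, since probes pair with no gene. The rule for named probes took the 10 largest rises and 10 largest falls among called probes well above background on all 10 arrays, and up to 3 of each among dimmer ones. The first 2 of each are printed by ID, with the probe of smallest p in each direction for the difference between arms, which was added after the values were seen. Alternatives were normexp (offset 50, median signal) followed by quantile normalization, quantile normalization alone, the deposited values, other filters on dim probes, slide or scan day as a block, fewer arrays in the fit, and leaving out each array. Added after seeing the data was a random block (limma's duplicateCorrelation) of 8 pairs, each a DHT array and its most correlated control array of the same time at r over 0.4, after removal of the group means.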

Additional observations from a re-analysis of the deposited data

Results flagged for a closer look

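Of 40 groups of 4 or 5 arrays checked, 3 held 1 array far from the others by Dixon's test, and chance flags about 1 group in 20. UF_Ppr_AF_115298 stood at -9.24 on control 6 h replicate 2, below the other 3 arrays of that group. UF_Ppr_AF_117880 stood at -7.07 on control 9 h replicate 5, above the other 4. Neither probe was well above background on that array. DHT 6 h replicate 2 had a mean correlation of 0.936 with the other 9 DHT arrays of 6 and 9 h, below the other 4 arrays of its group. Without it 14 probes were called between 6 and 9 h with DHT, against 109 with it. This was not particular to the flagged array. The 10 omissions of 1 array left 14 to 229 calls, and omission of DHT 9 h replicate 4, not flagged, also left 14.

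For UF_Ppr_AF_115298, every DHT array measured lower at 9 h than every one at 6 h, and every control array higher. Of these arrays, 4 of 5 with DHT at 6 h, 0 of 5 with DHT at 9 h, 0 of 4 controls at 6 h and 1 of 5 at 9 h were well above background. The difference between arms was -2.32 (SE 0.46) and did not pass (limma adjusted p = 0.619 over all tested probes). It passed in a fit that kept 8 inferred pairs of a DHT and a control array together, at -2.24 (limma adjusted p = 0.00549). Without the pairs it was -0.20 (SE 0.14) after normexp, whose offset shrinks differences of dim probes. It was -1.83 (SE 0.50) after quantile normalization alone and -1.99 (SE 0.51) in the deposited values, and passed in none of these.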

How the results depend on the processing

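The 109 calls between 6 and 9 h with DHT became 192 among the 10015 probes well above background on all arrays, 20 with slide as a fixed block, 6 with the 14 DHT arrays, 0 with the 10 arrays compared, 0 with the arrays of slides 2 and 3, 39 with inferred pairs of arrays as a random block, and 14 to 229 when 1 array was left out. Fewer probes were tested in the first, and fewer arrays were fitted in the others but the slide and pair blocks. The cause of these shifts was not tested. Other filters, scalings and blocks gave 82 to 129. Among these, scan day as a fixed block gave 117. All 6 and 9 h arrays shared 1 scan day, so this block left the estimated changes and the difference between arms as they were. In the fit reported, 69 probes had an unadjusted p under 0.05 for the difference between arms, less than a share of 0.05. This difference had 0 calls by limma there and in the 28 alternatives without pairs. Of 3 fits with the inferred pairs, added after seeing the data, it had 1 over 27 arrays, 2 over 19 arrays and 0 after normexp. No single probe named reversed its direction. Alternatives other than omissions ended the call of UF_Ppr_AF_116216 in 5 of 11, of UF_Ppr_AF_116027 in 4 of 11, and of UF_Ppr_AF_111538 and UF_Ppr_AF_116100 in 4 of 12 each. No paired analysis was possible from the labels because they give no replicate numbers, and the pairs above rest on the data alone. With the slide as a random block the correlation within slides was 0.136. The number of arrays, and background for dim probes, limit what could be called.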

Other observations

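Of the called probes, 22 had a name that shares its contig number with other tested probes, 30 in all. Of these 30 partner probes 18 had the sign of the called probe and 0 were called by limma. The correlation of the changes across these pairs was 0.115, a description over pairs that share arrays and in part a called probe. Whether such probes measure 1 transcript is not given in the sources used here.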
